A study of Mus musculus with 14 samples.

Results

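The epidermal differentiation complex is a stretch of mouse chromosome 3 that holds most of the genes of the cornified envelope, and its chromatin was compared here between 2 kinds of skin stem cell at 2 ages. Every 500-base window of the deposited ATAC-seq tables that starts at a multiple of 500 between chr3:90500000 and chr3:93700000 (mm10) was taken, whatever its signal. These are 6400 windows of 5267565 on chromosomes 1 to 19 and X. ATAC-seq measures how readily a transposase inserts into DNA, so a high count marks open chromatin. The cells came from back skin of female mice aged 2 months (young) or 24 months (aged), and the labels of every sample name the strain in different ways, as C57B6 and as C57B8. Hair follicle stem cells (HFSC) were sorted as lineage-negative, integrin α6-high, CD34+ and Sca1-. Epidermal stem cells (EpdSC) were sorted as lineage-negative, integrin α6-high, CD34- and Sca1+. Each of the 4 groups had 1 ATAC library and 2 RNA-seq libraries, so ATAC values have no replicate check and no test. The study also holds single-cell libraries, not analysed here.

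The complex is made of gene families that arose by local duplication. The S100 genes at both ends encode small calcium-binding proteins. Between them lie the late cornified envelope (Lce) and small proline-rich (Sprr) genes, loricrin (Lor) and involucrin (Ivl), whose proteins are cross-linked under the membrane of dying keratinocytes, and the fused S100-type genes (Flg, Flg2, Hrnr, Rptn, Tchh, Tchhl1, Crnn), which encode long filament-binding or scaffold proteins. The envelope genes are known to be switched on as keratinocytes leave the basal layer, while basal stem cells keep most of them low.

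The promoters printed next belong to genes that the accessibility and RNA results below describe. The rule that chose Sprr1a, Ivl and S100a11 also chose Sprr2a3 and Chtop, which hold neither of the motifs marked here and are not printed. S100a13, called higher in EpdSC at both ages, was left out by hand because its start overlaps with S100a1. All come from RefSeq (GRCm38.p6) and run 5′ to 3′ on the gene's strand, up to the base before the gene's start. Capitals mark the AP-1 motif TGANTCA and the TATA box TATAAA on either strand. The Sprr1a promoter is chr3:92485882-92486131 on the minus strand and S100a11 is chr3:93520246-93520495 on the plus strand. The Ivl stretch is chr3:92573791-92573985 on the minus strand, without the bases between 2 alternative starts, where the TATA box counted for Ivl among the promoters lies. S100a4 is chr3:90603520-90603769 on the plus strand and Lce6a is chr3:92621661-92621910 on the minus strand. S100a4 and Lce6a were added after their values were seen.
Sprr1a: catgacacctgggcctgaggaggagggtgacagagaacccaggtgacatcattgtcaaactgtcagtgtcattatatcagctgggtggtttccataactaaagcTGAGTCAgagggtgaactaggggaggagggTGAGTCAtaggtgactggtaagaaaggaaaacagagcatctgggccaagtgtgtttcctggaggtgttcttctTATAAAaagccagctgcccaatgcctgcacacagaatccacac
Ivl: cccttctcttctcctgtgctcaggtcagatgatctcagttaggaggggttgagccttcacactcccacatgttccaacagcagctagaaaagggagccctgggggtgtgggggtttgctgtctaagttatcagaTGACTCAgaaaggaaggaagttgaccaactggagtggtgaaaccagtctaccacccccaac
S100a11: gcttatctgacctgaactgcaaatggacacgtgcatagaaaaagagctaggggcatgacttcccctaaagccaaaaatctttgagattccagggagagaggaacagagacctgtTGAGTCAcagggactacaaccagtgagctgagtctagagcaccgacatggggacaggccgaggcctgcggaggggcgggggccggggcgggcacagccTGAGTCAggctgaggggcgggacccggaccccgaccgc
S100a4: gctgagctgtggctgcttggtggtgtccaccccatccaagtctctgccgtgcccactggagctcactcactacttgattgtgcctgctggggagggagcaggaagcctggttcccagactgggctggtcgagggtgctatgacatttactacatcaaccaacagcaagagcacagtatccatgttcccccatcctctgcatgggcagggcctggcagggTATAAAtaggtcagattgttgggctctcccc
Lce6a: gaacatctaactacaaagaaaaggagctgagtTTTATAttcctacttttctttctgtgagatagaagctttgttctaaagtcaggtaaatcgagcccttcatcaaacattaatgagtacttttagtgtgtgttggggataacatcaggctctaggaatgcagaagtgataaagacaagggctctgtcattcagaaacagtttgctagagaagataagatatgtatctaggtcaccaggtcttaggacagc

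Across the complex, 64 of the 73 protein-coding genes had a start in the RefSeq promoter table, with 69 promoters in all. AP-1 is a factor family active in differentiating keratinocytes, and its motif was present within 250 bases before the start in 20 of the 69 (29.0%), against 6.75% of the 32851 promoters of the whole table. It was found in 9 of 14 Sprr promoters, 5 of 7 fused S100-type promoters, 3 of 6 promoters of the other envelope genes (Lor, Ivl and their neighbours), 3 of 16 S100 promoters and 0 of 20 Lce promoters. The TATA box, which places the start of transcription, was in 28 of 69 (40.6%), against 12.4% of the table. The GRHL motif AACCNGTT was in 3 of 69 (4.35%, against 1.79%), the KLF motif CCACCC in 20 (29.0%, against 28.1%) and the CCAAT box in 17 (24.6%, against 33.9%). All motifs were searched on both strands. Members of a family share sequence by descent, so these counts are descriptions and not independent sites. Counted back from the start, the AP-1 matches lay at -146 and -116 in Sprr1a, at -136 and -38 in S100a11 and at -116 in Ivl. The Ivl position counts from the inner of the 2 alternative starts, and so includes the bases that are not printed. The TATA-box letters began at -43 in Sprr1a and at -31 in S100a4, and those of Lce6a, on the other strand, at -218.

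The 4 ATAC libraries held 26169738 (young HFSC), 8243611 (aged HFSC), 37322834 (young EpdSC) and 22933001 (aged EpdSC) counts. Values are given as CPM, the counts of a window per 1000000 counts of its library, and a window is called open at 4 CPM or more, which is 33.0 counts in aged HFSC and 149 in young EpdSC. The aged HFSC library stood apart: open windows took 8.19% of its counts, against 27.2% in the young HFSC library and 27.1% and 29.6% in the EpdSC libraries. Counts of windows in comparisons that use it are therefore given beside the same counts over the genome and beside a second scaling to the windows open in all 4 libraries, and ratios that use it are also given under that scaling where they are described. The part of depth, signal over background and age in it cannot be told apart with 1 library per group.

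The complex was open at few places. Of its 6400 windows, 118 (1.84%) were open in at least 1 library, against 1.01% over the genome, and 20 (0.3125%) were open in all 4, against 0.191%. HFSC had 67 open windows at 2 months and 24 at 24 months, and EpdSC had 90 and 89. Summed over the complex, the signal was 1444 and 1158 CPM in HFSC at 2 and 24 months, and 1615 and 1564 CPM in EpdSC, where an even spread over the genome would give 1215. The young HFSC and both EpdSC libraries were above that level and aged HFSC was below it.

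**Figure D1:**
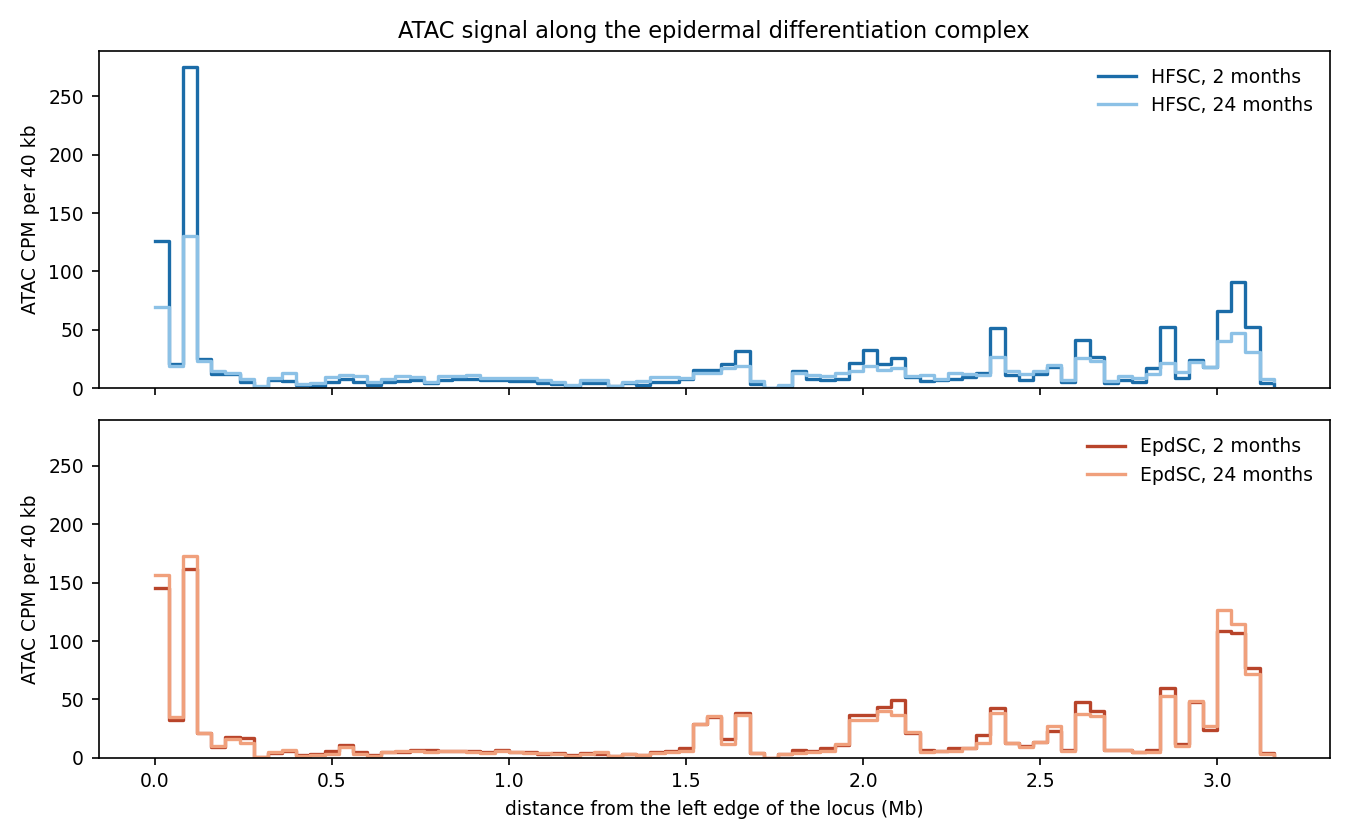
ATAC signal (CPM per 40 kb, linear axis from 0) along the complex, by distance in Mb from its left edge, with HFSC above and EpdSC below and 1 line per library. The signal of all 4 libraries is highest near the S100 genes of both ends, and a stretch of 1417 kb between them holds no open window.

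Most of the open windows lay at the S100 genes. When each window was given to the family of its nearest protein-coding gene, 64 of the 118 open windows fell to the S100 genes, 20 to the fused S100-type genes, 15 to the other envelope genes, 7 to Lce, 6 to Sprr, 4 to the peptidoglycan recognition genes Pglyrp3 and Pglyrp4, and 2 to other genes. The Sprr and Lce families thus held 13 open windows over 712 and 748 windows (0.843% and 0.936%, against 1.01% over the genome). Windows within 500 bases of a gene start were open in 34 of 231 cases (14.7%), those in gene bodies in 29 of 643 (4.51%) and intergenic ones in 55 of 5526 (0.995%). For genes with no start in the promoter table, S100a14 and S100a10 among them, the gene end with more ATAC counts was taken as the start. For those genes the share at starts is partly set by the counts themselves. The shares at starts, in gene bodies and between genes were not computed over the genome.

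The highest windows on average were at S100 genes, with 6 of the 8 highest within 500 bases of a start and 2 in gene bodies. Those at S100a14 lie at a start that was itself taken from the ATAC counts. S100a14 encodes an S100 protein of epithelia, and the window at its start, chr3:90526501-90527000, held 18.8 and 8.86 CPM in HFSC at 2 and 24 months, and 17.0 and 19.5 CPM in EpdSC. By all counts, young HFSC and both EpdSC libraries were close to each other there, and aged HFSC was low. The windows from chr3:90585501 to chr3:90587500, at a start that RefSeq gives to S100a3, ranged from 14.4 to 19.3 CPM in HFSC at 2 months and from 7.04 to 8.49 at 24 months. In EpdSC they ranged from 11.4 to 14.4 and from 13.5 to 17.6. Aged HFSC was the lowest library at both places by all counts. Under the second scaling, the log2 ratio of aged to young HFSC was -0.16 at the S100a14 window. Over the S100a3 windows that ratio ran from -0.39 to 0.094, so the rank of aged HFSC there depends on the scaling.

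Long stretches held no open window in any library. The longest, 1417 kb (chr3:90616001-92033000), holds S100a7a, S100a8, S100a9, S100a7l2, Pglyrp4 and Pglyrp3, and its mean per window was 0.0764 and 0.107 CPM in HFSC at 2 and 24 months, and 0.0774 and 0.0679 CPM in EpdSC. Its highest window held 3.92 CPM. Pglyrp3 lies at the edge of this run. The stretch 329 bases past that gene, chr3:92033001-92035000, was open, with 6.11 and 2.67 CPM in HFSC at 2 and 24 months, and 20.3 and 21.0 CPM in EpdSC. A run of 248 kb (chr3:92622001-92870000) holds 14 genes from Lce1a1 to Lce1l, with Kprp. A run of 176.5 kb (chr3:92309001-92485500) holds 9 Sprr genes from Sprr2b to Sprr3, and 1 of 159.5 kb holds Flg2 and Flg. No window of these runs was open in either stem cell population at either age. Over whole families, 0.843% of Sprr and 0.936% of Lce windows were open in at least 1 library, against 1.01% over the genome. The share was 2.91% for the other envelope genes and 2.59% for the fused S100-type genes. In a further run of 138 kb with the near-identical copies Sprr2a1, Sprr2a2 and Sprr2a3, 59.8% to 73.6% of windows had no count, so the copies' signal is uncertain.

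Among the 73 protein-coding genes, the promoter (windows overlapping 500 bases either side of the start) held an open window in 12 genes at 2 months and 7 at 24 months in HFSC, and in 13 genes at both ages in EpdSC. For a gene with several starts the one with the most ATAC counts was used, and for genes with no start in the promoter table (S100a14, S100a10, Pglyrp3 and Pglyrp4 among them) the end of the gene with more counts, so their side is not known from the table. It was open in 9 of 15 S100 genes in at least 1 library, in 1 of 14 Sprr genes (Sprr1a) and in 1 of 21 Lce genes (Lce6a). The share of promoters open over the genome was not computed, so these counts have no background to be read against. Crnn, which encodes cornulin, was the open one of the 7 fused S100-type genes, with 12.1 and 7.76 CPM in HFSC at 2 and 24 months, and 15.0 and 16.1 CPM in EpdSC. Its RNA did not pass the filter on low counts. The promoters of Flg, the gene of filaggrin, and of Hrnr stayed under 1 CPM in each library, with 0.153 to 0.305 CPM for Flg and 0.402 to 0.970 for Hrnr.

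At 2 months, the EpdSC and HFSC libraries differed at specific windows in both directions. The total of the complex was 0.16 higher in EpdSC on the log2 scale by all counts (95% interval 0.14 to 0.18). That interval is an exact conditional binomial interval that covers counting error only. Under the second scaling the ratio of the totals was larger, as given in the section on how the results depend on the processing. Of the 110 windows open in either library, 37 were at least 2-fold higher in EpdSC (33.6%, against 23.5% of such windows over the genome) and 19 were at least 2-fold lower (17.3%, against 20.2%). The ratio of a window is taken after adding 0.1 CPM to both values. The counting intervals of all 37 and all 19 ratios excluded 0. The minimum of 4 CPM and the 2-fold limit largely set this in advance, so it adds no support. The median log2 ratio was 0.14, against 0.04 over the genome. Scaled to windows open in all 4 libraries, 40 of 99 were higher (30.0% over the genome) and 13 lower (14.9%). At 4-fold on all counts, 14 windows were higher (11.9% over the genome) and 9 lower (13.5%). With 1 library per group these shares were not tested against the genome, and nothing is read from them about the complex.

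**Figure D2:**
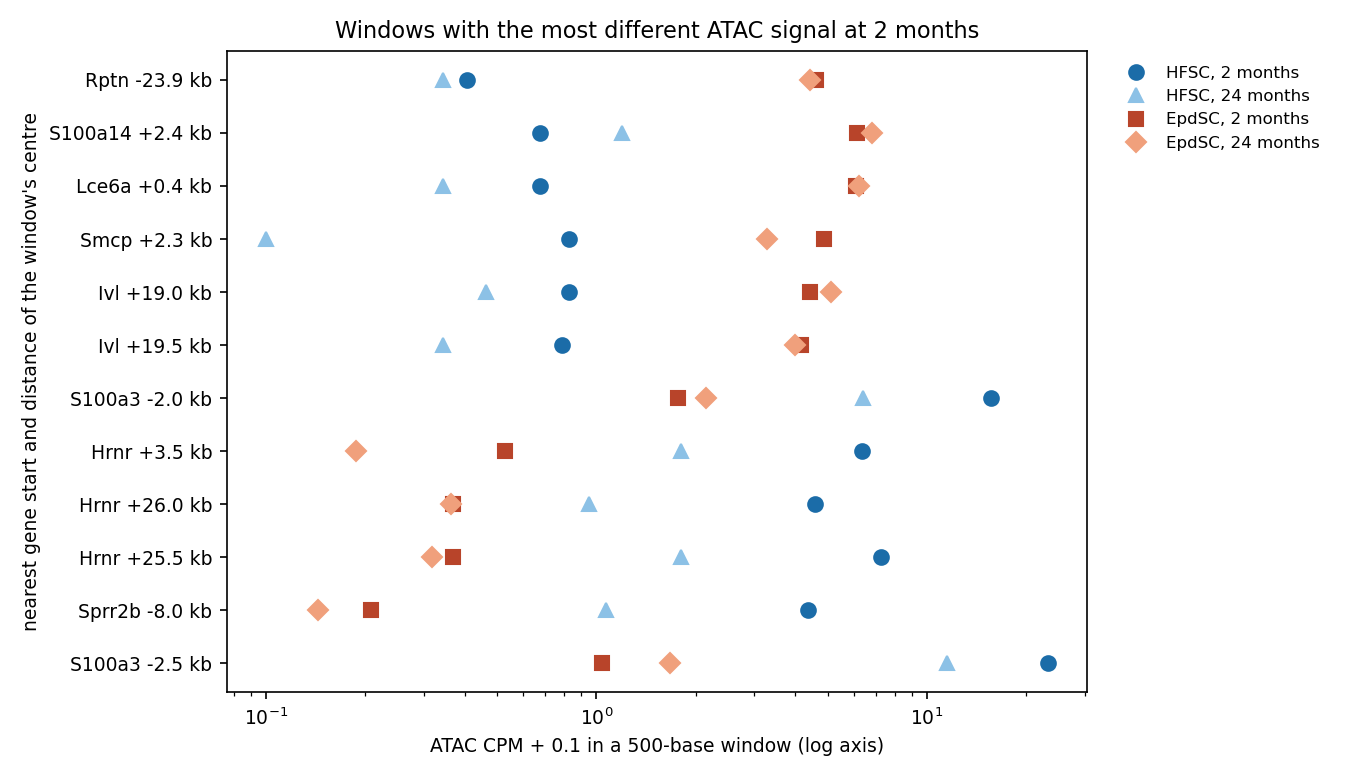
ATAC signal (CPM + 0.1, log axis) of the 6 windows with the highest and the 6 with the lowest ratio of EpdSC to HFSC at 2 months, 1 point per library, named by the nearest gene start and the distance of the window's centre in kb. In each of the 12 windows the 2 EpdSC libraries lie on the same side of the 2 HFSC libraries.

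The 37 windows higher in EpdSC were spread over the families, with 16 nearest S100 genes, 9 nearest fused S100-type genes, 6 nearest the other envelope genes, 3 nearest Pglyrp genes, 2 nearest Sprr genes and 1 nearest an Lce gene. The 6 with the largest ratios lay near Rptn, S100a14, Lce6a, Smcp and Ivl. The largest ratio was in an intergenic window before Rptn (repetin), chr3:93369501-93370000, with 0.306 and 0.243 CPM in HFSC at 2 and 24 months, and 4.53 and 4.32 CPM in EpdSC. Both EpdSC libraries were high and both HFSC libraries near 0 there, with log2 ratios of 3.51 at 2 months (interval of the plain ratio 2.88 to 5.12) and 3.69 at 24 months (3.04 under the second scaling). Lce6a is an Lce gene that lies beside the Lce1 genes. The window at its start, chr3:92621001-92621500, held 0.573 and 0.243 CPM in HFSC at 2 and 24 months, and 6.00 and 6.15 CPM in EpdSC. Over the whole Lce6a promoter, printed earlier, the values were 1.07, 0.485, 10.4 and 10.9 CPM in the same order, so that both EpdSC libraries stood above both HFSC libraries. The other 20 Lce promoters reached no open window in any library.

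Past the other end of S100a14, chr3:90529001-90529500 held 0.573 and 1.09 CPM in HFSC at 2 and 24 months, and 6.06 and 6.72 CPM in EpdSC. The S100a14 start itself, 2152 bases away, did not share this difference at 2 months, with a log2 ratio of -0.15 (interval -0.32 to 0.02). An intergenic pair of windows 18735 bases past the Ivl start, chr3:92554001-92555000, held 1.41 and 0.607 CPM in HFSC at 2 and 24 months, and 8.39 and 8.90 CPM in EpdSC. A window in the body of Smcp, a sperm mitochondrial protein gene of the complex, held 0.726 and 0 CPM in HFSC at 2 and 24 months, and 4.77 and 3.18 CPM in EpdSC. At 24 months that is at least 8.75-fold higher in EpdSC, against a floor of 3 counts in the aged HFSC library, and at least 5.01-fold under the second scaling.

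Loricrin is the main protein of the cornified envelope. Windows in the body of its gene (chr3:92080501-92082000) held 6.11 and 2.06 CPM in HFSC at 2 and 24 months, and 20.3 and 22.0 CPM in EpdSC, for log2 ratios of 1.73 at 2 months (1.48 to 1.99) and 3.41 at 24 months (2.72 to 4.20), or 2.61 at 24 months under the second scaling. The Lor promoter itself was closed, at 0.364 to 1.15 CPM. The stretch chr3:93547501-93549000, beside S100a10, held 4.74 and 4.12 CPM in HFSC at 2 and 24 months, and 19.7 and 22.5 CPM in EpdSC, and was high in both EpdSC libraries.

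Of the 19 windows higher in HFSC, 6 had their nearest start at S100a3, 3 at S100a4, 4 at Hrnr, 2 at S100a10, 2 at 2310050C09Rik, and 1 each at Sprr2b and Sprr4. S100a3 encodes an S100 protein known from the hair cuticle, and S100a4 a metastasis-associated S100 protein also made by fibroblasts. The window chr3:90597501-90598000, in the RefSeq span of S100a3 and 2214 bases before 1 of its starts, held 23.1 and 11.4 CPM in HFSC at 2 and 24 months, and 0.938 and 1.57 CPM in EpdSC. It was the highest window of the aged HFSC library in the complex and low in both EpdSC libraries, with log2 ratios of -4.48 at 2 months (-5.16 to -4.13) and -2.78 at 24 months (-3.46 to -2.29), or -3.57 at 24 months under the second scaling. The next window, to chr3:90598500, held 15.6, 6.31, 1.66 and 2.05 CPM in the same order of libraries. At the S100a3 start nearby, chr3:90600501-90601000, the values were 23.2, 9.22, 8.60 and 7.89 CPM, so EpdSC chromatin was open there too.

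The S100a4 promoter, with its TATA box, held 16.4 and 8.25 CPM in HFSC at 2 and 24 months, and 5.73 and 4.10 CPM in EpdSC. Both HFSC libraries were above both EpdSC libraries, with log2 ratios of -1.50 at 2 months (-1.76 to -1.27) and -0.99 at 24 months (-1.47 to -0.54), or -1.78 at 24 months under the second scaling. The neighbouring S100a6 promoter did not share this at 2 months: it held 12.4 and 6.91 CPM in HFSC at 2 and 24 months, and 12.1 and 17.5 CPM in EpdSC.

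Hrnr encodes hornerin, a filaggrin-like protein. In its body, chr3:93323001-93323500 held 6.27 and 1.70 CPM in HFSC at 2 and 24 months, and 0.429 and 0.0872 CPM in EpdSC. Between Hrnr and Rptn, chr3:93345001-93345500 held 7.15, 1.70, 0.268 and 0.218 CPM in the same order. A further window 7705 bases before Sprr2b, chr3:92308501-92309000, held 4.28, 0.970, 0.107 and 0.0436 CPM. In these 3 windows young HFSC was the only library past 4 CPM, aged HFSC was next and both EpdSC libraries were lowest. The EpdSC-high window before Rptn lies in the same interval between Hrnr and Rptn, so opposite differences stood side by side there.

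At 24 months the comparison uses the aged HFSC library. Of 93 windows open in either library, 75 were at least 2-fold higher in EpdSC (80.6%, against 64.3% over the genome) and 2 were lower (2.15%, against 5.76%). At 4-fold, 35 were higher (25.6% over the genome) and 1 lower (3.98%). The median log2 ratio was 1.66, against 1.28 over the genome. Scaled to windows open in all 4 libraries, 33 of 85 were higher (25.1% over the genome) and 7 lower (18.0%), with a median of 0.62 against 0.28. The total of the complex was 0.43 higher in EpdSC on the log2 scale (0.40 to 0.47) by all counts and -0.37 by the second scaling, so its direction depends on the scaling.

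**Figure D3:**
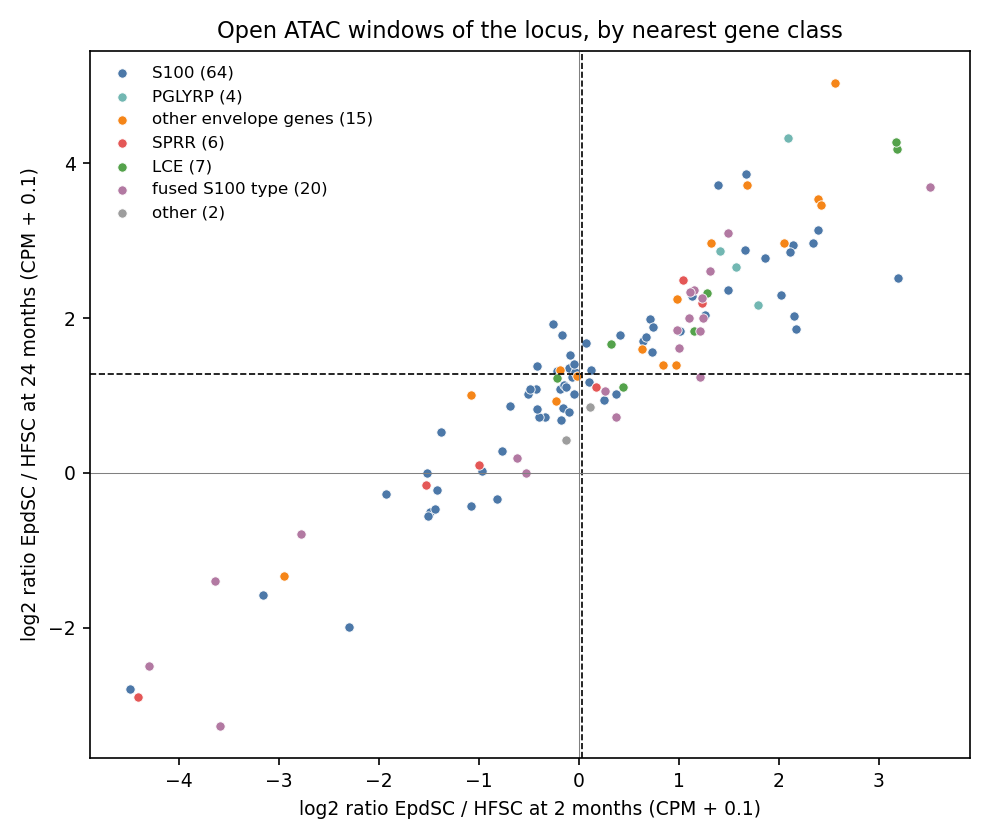
log2 ratio of EpdSC to HFSC (CPM + 0.1) at 2 months against that at 24 months for the 118 open windows, coloured by the family of the nearest gene, with the number of windows per family; dashed lines mark the genome medians (0.04 and 1.28). All 37 windows at least 2-fold higher at 2 months lie above 0 at 24 months, and most windows are shifted upwards, as the genome median is.

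The windows higher in EpdSC at 2 months were also higher at 24 months, where the genome median is itself 1.28. Of the 37, 33 were open in an aged library and all 33 of these were at least 2-fold higher at 24 months. With no minimum at 24 months, all 37 were at least 2-fold higher, and 36 under the second scaling. Of the 19 windows lower at 2 months, 6 were open in an aged library and 2 of these were at least 2-fold lower at 24 months. With no minimum at 24 months, 8 of the 19 were at least 2-fold lower, and 15 under the second scaling. The sign was the same in 17 of the 19, and in 18 under the second scaling. The same carry-over was not counted over the genome, so nothing is read from these counts about the complex. The 2 ages use separate libraries of each population. Over the 118 windows, Pearson's r of the CPM was 0.899 between young and aged HFSC, 0.968 between young and aged EpdSC and 0.107 between young HFSC and young EpdSC. These are descriptions over neighbouring windows that share libraries. Keeping windows open in at least 1 library takes in those open in a single population, which favours a low r between populations. The r was not computed over the genome.

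With age, the EpdSC libraries were nearly the same over the complex. Of 100 windows open at either age, 0 were 2-fold higher (0.515% over the genome) and 0 were 2-fold lower (0.105%), and at 4-fold 0 were called in either direction (0.0286% and 0% over the genome). Under the second scaling 0 of 90 were higher (0.271%) and 0 lower (0.199%). The median log2 ratio of aged to young was 0.07, against 0.09 over the genome. The log2 ratios ran from -0.60 to 0.70. The S100a6 start window chr3:90613001-90613500 held 7.26 CPM in young and 9.99 in aged EpdSC, and chr3:93129001-93129500, 15289 bases before Crnn, held 5.39 and 3.53. The total was 1615 CPM in young and 1564 in aged EpdSC. With 1 library per age, the spread between animals is unknown.

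**Figure D4:**
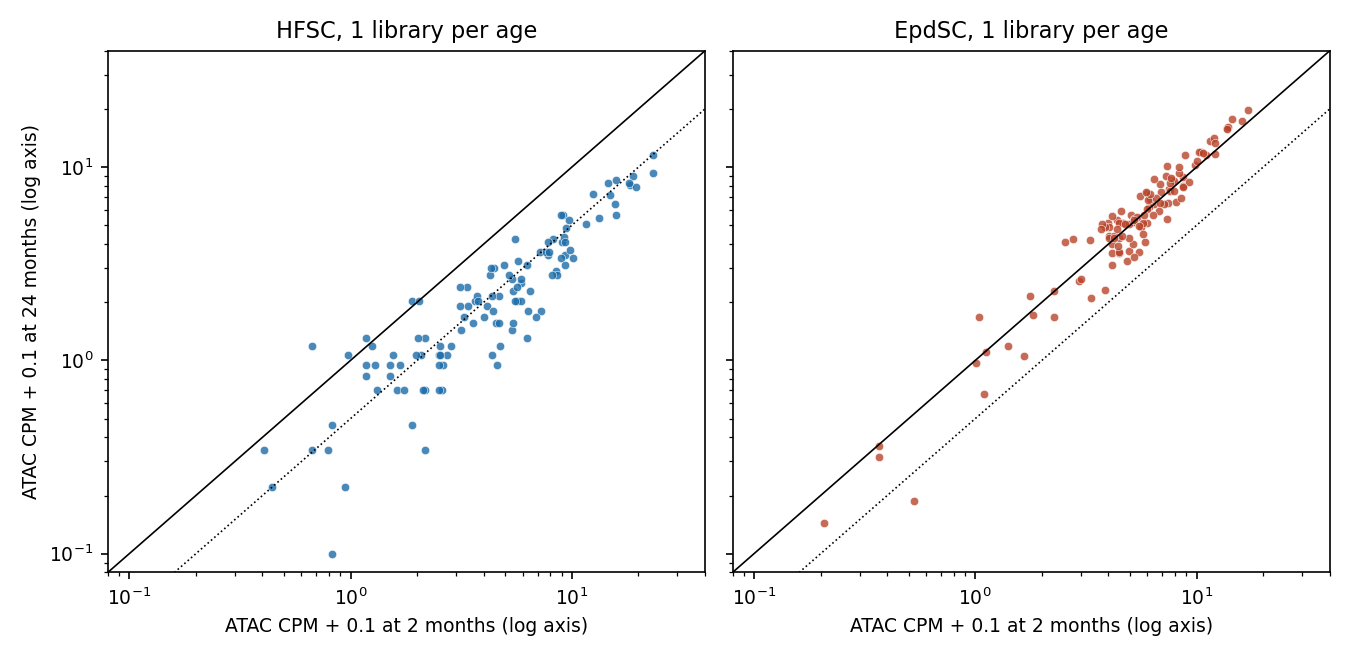
CPM + 0.1 at 24 months against 2 months (log axes) for the 118 open windows, HFSC left and EpdSC right; the solid line marks equal values and the dotted line a value 2-fold lower. The EpdSC windows lie along the solid line, and the HFSC windows lie around the dotted one, as the genome median ratio of HFSC also does.

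In HFSC, the 67 windows compared were all open in the young library, and 43 of them in it alone. Choosing windows this way favours lower values in the aged library, and its part in the values was not tested. By all counts, each of the 67 was lower in the aged library. Of these, 49 were at least 2-fold lower (73.1%, against 50.0% over the genome) and 0 were 2-fold higher (0.128%). At 4-fold, 5 were lower (2.45%) and 0 higher (0%). The median log2 ratio was -1.18, against -1.0 over the genome. Under the second scaling, 4 of 58 windows were 2-fold lower (2.64% over the genome) and 0 higher (4.07%), with a median of -0.26 against -0.02, and 12 of the 58 were higher in the aged library. The lowest ratios were at the start of 2310050C09Rik, a small gene of the complex (chr3:92870001-92870500, 6.19 CPM in young and 1.21 in aged HFSC), and between Hrnr and Rptn (chr3:93345501-93346000, 4.47 and 0.849). The highest were at the Chtop start at the complex's edge (5.43 and 4.12 CPM) and in the body of Tchh, the trichohyalin gene (4.20 and 2.91), with log2 ratios of -0.39 and -0.52 by all counts and 0.51 and 0.38 under the second scaling. The part that the low share of counts in open windows has in these values was not tested.

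RNA-seq of the same populations gave a readout with replicates. The 8 libraries held between 25126808 and 35905505 counts, and 37 of the 95 genes of the complex found in the table (of 108 in RefSeq) passed the filter on low counts. The sorted identity held in the RNA. The 8 listed HFSC markers summed to 16316 to 19077 CPM in HFSC and 4024 to 5795 in EpdSC, and 7 of the 8 were lower in EpdSC at both ages by edgeR's test, while Krt15 was not called. The 6 basal epidermal markers summed to 6578 to 9975 CPM in HFSC and 16020 to 22808 in EpdSC, with 5 of the 6 called higher at both ages. Cd34 of the HFSC list and Ly6a (the gene of Sca1) of the basal list were used for the sort, which set their direction. Thbs1 was called lower at 24 months (log2 fold change -0.92, edgeR adjusted p = 0.0375) and not called at 2 months (-0.38). The 6 suprabasal markers, led by Krt1, Krt10 and Dsg1a, summed to 188 to 515 CPM in HFSC and 3168 to 4409 in EpdSC. Suprabasal RNA thus differed between the populations, and its part in the values of the envelope genes was not tested. Sbsn, of that list, was lower in EpdSC. The labels do not say whether replicates are separate animals. The p-values therefore cover the spread among these libraries alone, which may be technical. In bulk RNA, fewer cells of a type and less RNA per cell cannot be told apart.

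**Figure D5:**
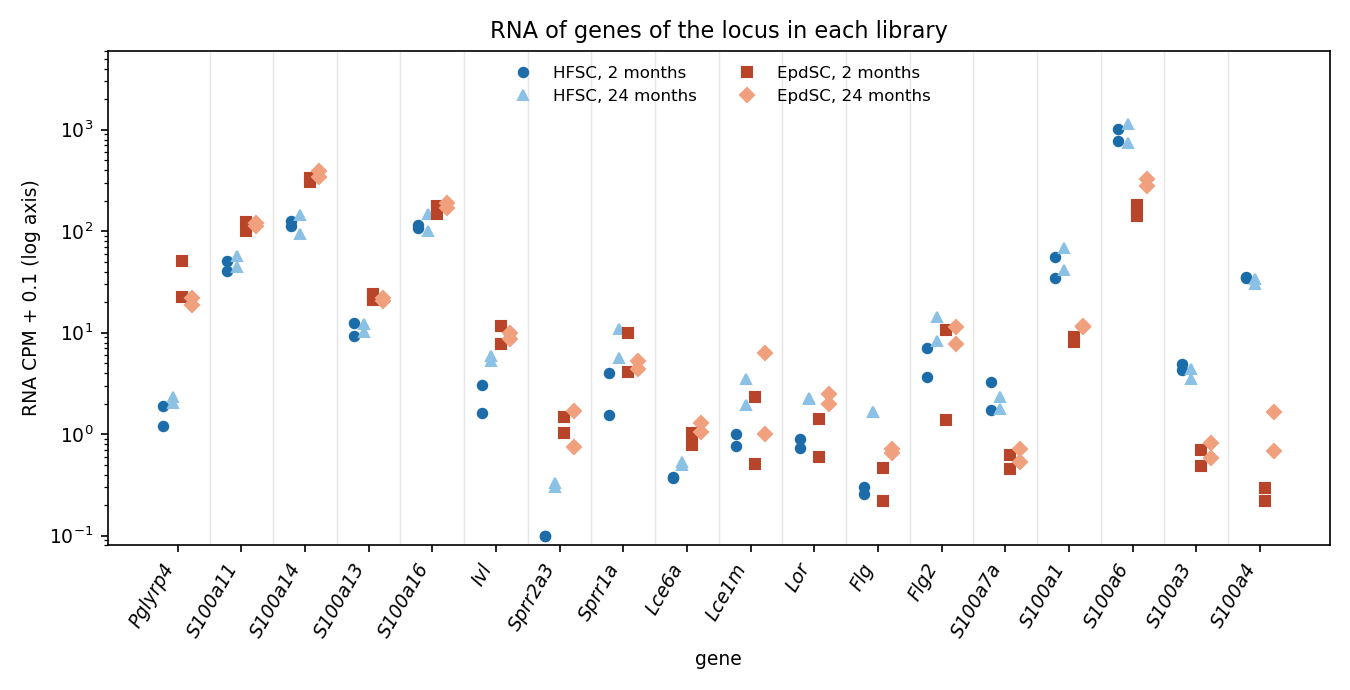
RNA level (CPM + 0.1, log axis) of 18 genes of the complex in each of the 8 libraries, 2 per group. Pglyrp4, S100a11, S100a14 and S100a13 are higher in all 4 EpdSC libraries than in all 4 HFSC libraries, and S100a7a, S100a1, S100a6, S100a3 and S100a4 are lower in them.

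At 2 months, 7 genes of the complex rose in EpdSC against HFSC (13.0% of all 21464 genes tested did) and 5 fell (13.1%), by edgeR's quasi-likelihood test with Benjamini-Hochberg adjustment. At 24 months 4 rose (12.2%) and 5 fell (11.9%). Of the 10 S100 genes tested, 4 rose and 5 fell at 2 months, and 3 rose and 5 fell at 24 months. The Sprr family gave 1 of 4, the other envelope genes 1 of 6, the Pglyrp genes 1 of 2, and the Lce and fused S100-type genes 0 of 5 each at 2 months. The median log2 fold change of the 37 genes was 0.32 at 2 months and 0.09 at 24 months, against -0.06 and -0.09 over all genes tested.

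The genes that fell in EpdSC were all S100 genes. S100a4 was at 34.6 and 35.1 CPM in HFSC at 2 months and 30.4 and 33.4 at 24 months, and at 0.118 and 0.197 CPM in EpdSC at 2 months and 0.587 and 1.56 at 24 months. No HFSC library overlapped with an EpdSC one, and the log2 fold changes were -7.77 ± 0.44 (SE; n = 2 per group, edgeR adjusted p = 1.91e-07) at 2 months and -4.89 ± 0.35 (edgeR adjusted p = 1.22e-06) at 24 months. The fibroblast markers moved the same way, at 50.2 to 83.4 CPM summed in HFSC and 1.15 to 5.40 in EpdSC. Of that list, Col1a2 made up most of the sum, at 43.7 to 75.6 CPM in HFSC, while Dcn, Col3a1 and Lum stayed at or below 1.64 CPM there. Col1a1 was at 9.79 and 16.8 CPM in HFSC at 2 months and 4.49 and 3.92 at 24 months, and at 0.206 and 0.987 CPM in EpdSC at 2 months and 0.711 and 1.63 at 24 months, and was called lower in EpdSC at both ages (edgeR adjusted p = 0.000199 and 0.0322). The part of such cells in the S100a4 value was not tested.

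S100a6, which encodes calcyclin, was at 773 and 1009 CPM in HFSC at 2 months and 747 and 1144 at 24 months, and at 141 and 179 CPM in EpdSC at 2 months and 278 and 324 at 24 months. S100a1 was at 34.3 and 55.5 CPM in HFSC at 2 months and 40.9 and 68.1 at 24 months, and at 7.91 and 9.05 CPM in EpdSC at 2 months and 11.2 and 11.4 at 24 months. S100a3 was at 4.79 and 4.21 CPM in HFSC at 2 months and 3.42 and 4.28 at 24 months, and at 0.382 and 0.592 CPM in EpdSC at 2 months and 0.711 and 0.488 at 24 months. For these genes too the 2 populations did not overlap at either age. The log2 fold changes at 2 and 24 months were -2.48 and -1.65 for S100a6, -2.40 and -2.27 for S100a1 and -3.20 and -2.67 for S100a3. S100a7a, a gene of the psoriasin family, fell by 2.44 and 1.88 at levels of at most 3.16 CPM, and its call was lost without young HFSC replicate 1 or young EpdSC replicate 1 at 2 months, and without any one of the 4 aged libraries at 24 months.

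Among the genes that rose, Pglyrp4 encodes a secreted peptidoglycan-binding antibacterial protein. It was at 1.10 and 1.81 CPM in HFSC at 2 months and 2.25 and 1.94 at 24 months, and at 22.4 and 50.5 CPM in EpdSC at 2 months and 18.5 and 21.6 at 24 months. Each EpdSC library was above each HFSC library, with log2 fold changes of 4.66 ± 0.41 (SE, edgeR adjusted p = 5.41e-06) and 3.26 ± 0.38 (edgeR adjusted p = 6.13e-05). Its promoter stayed closed in ATAC, at 0.535 and 0.243 CPM in HFSC at 2 and 24 months, and 1.45 and 1.05 CPM in EpdSC, and lies in the 1417-kb run without an open window.

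S100a14 was at 114 and 127 CPM in HFSC at 2 months and 94.6 and 145 at 24 months, and at 332 and 305 CPM in EpdSC at 2 months and 340 and 396 at 24 months. S100a11, whose protein is cross-linked into the envelope, was at 50.3 and 40.1, 44.7 and 56.8, 123 and 99.8, and 121 and 113 CPM in the same order of groups. Each EpdSC library was above each HFSC library for both. Their log2 fold changes were 1.41 and 1.62 for S100a14 and 1.30 and 1.20 for S100a11 at 2 and 24 months. Both promoters were open in all 4 ATAC libraries, and that of S100a11 held 15.0 and 6.55 CPM in HFSC at 2 and 24 months, and 14.4 and 17.6 CPM in EpdSC. S100a13 rose by 1.06 and 0.93 on the log2 scale. Its start and that of S100a1 face away from each other and share the same promoter windows, with 15.2 and 7.52 CPM in HFSC at 2 and 24 months, and 17.8 and 19.8 CPM in EpdSC, while the RNA of S100a1 fell in EpdSC and that of S100a13 rose. The genes overlap at their starts on opposite strands, and the sources used here do not say whether counting used the strand.

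Involucrin RNA stood at 1.53 and 2.95 CPM in HFSC at 2 months and 5.73 and 5.17 at 24 months, and at 11.5 and 7.60 CPM in EpdSC at 2 months and 8.53 and 9.73 at 24 months. It rose in EpdSC at 2 months by 2.10 ± 0.35 on the log2 scale (SE, edgeR adjusted p = 0.000856), and at 24 months the difference was 0.74 (edgeR adjusted p = 0.137). The Ivl promoter, with its AP-1 match at -116 from the inner start, held 2.22 and 1.21 CPM in HFSC at 2 and 24 months, and 3.78 and 4.06 CPM in EpdSC. Sprr2a3 was at 0 in both young HFSC libraries and at 1.38 and 0.921 CPM in young EpdSC, at least 9.65-fold higher against a floor of 3 counts per library. Its reads may be split with the near-identical Sprr2a1 and Sprr2a2, so the value is uncertain. S100a16 rose by 0.56 at 2 months (edgeR adjusted p = 0.0458), a call lost without either young HFSC library, without young EpdSC replicate 1 or without aged EpdSC replicate 1 (edgeR adjusted p from 0.0699 to 0.299 in these fits).

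Open promoters did not always come with a called RNA difference. Sprr1a, a small proline-rich envelope precursor, had promoter values of 5.81 and 2.18 CPM in HFSC at 2 and 24 months, and 12.7 and 10.7 CPM in EpdSC. Its RNA was at 3.89 and 1.46 CPM in HFSC at 2 months and 5.57 and 10.7 at 24 months, and at 9.77 and 3.98 CPM in EpdSC at 2 months and 5.10 and 4.26 at 24 months, so that the libraries of the populations overlapped at 24 months and nearly touched at 2 months (edgeR adjusted p = 0.0809 at 2 months and 0.307 at 24 months). Lce6a, with the highest promoter ratio of EpdSC to HFSC at 2 months in ATAC, had RNA of 0.266 and 0.275 CPM in HFSC at 2 months and 0.436 and 0.395 at 24 months, and 0.677 and 0.921 CPM in EpdSC at 2 months and 1.17 and 0.944 at 24 months. Each EpdSC library was above each HFSC one, but neither difference was called (edgeR adjusted p = 0.152 and 0.207). The long RNA gene Gm35639 spans Lce6a on the other strand, and reads of the 2 cannot be told apart without strand.

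Lor was at 0.799 and 0.629 CPM in HFSC at 2 months and 2.11 and 2.17 at 24 months, and at 0.50 and 1.32 CPM in EpdSC at 2 months and 1.89 and 2.38 at 24 months, with no call between the populations. Flg2, with filaggrin-like repeats, varied as much within young EpdSC (1.26 and 10.5 CPM) as between groups. It was at 3.60 and 6.92 CPM in HFSC at 2 months and 14.1 and 8.16 at 24 months, and at 7.70 and 11.2 CPM in aged EpdSC, and was not called. Without young EpdSC replicate 2 it came out at -2.03 at 2 months (edgeR adjusted p = 0.0134). Lce1m, the Lce gene with the most RNA, ranged from 0.412 to 6.19 CPM over the 8 libraries and was not called either.

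Across genes, the promoter's log2 ratio of EpdSC to HFSC and the RNA log2 fold change had a Pearson's r of 0.477 and a Spearman's rho of 0.427 at 2 months, over 34 protein-coding genes tested, with the same sign in 21. Over the 18 genes whose promoter averaged at least 1 CPM, r was 0.490. At 24 months r was 0.0517 over 34 genes and 0.345 over 18. Genes are not independent replicates, and the ATAC side rests on 1 library per group.

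With age, 0 genes of the complex passed edgeR's test in either population. In HFSC the background was 0.294% of genes higher and 0.0745% lower, and 6 genes of the complex were higher and 0 lower at an unadjusted p under 0.05 (4.76% and 2.92% of all genes). These 6 were Ivl, Flg, Sprr2a3, Pglyrp3, Sprr1a and Lor. Ivl had the log2 difference 1.29 ± 0.35 (SE, edgeR adjusted p = 0.202), and in each of the 6 genes both aged HFSC libraries were above both young ones. The 6 were chosen by p on these same libraries, so that separation adds no support. Flg was at 0.200 and 0.157 CPM in young and 1.54 and 1.55 in aged HFSC, from the gene identifier with the most counts of 7 that carry this symbol. The suprabasal markers moved with them, from 188 and 308 CPM in young HFSC to 422 and 515 in aged HFSC. So did the upper follicle and sebaceous list, at 940 and 1189 CPM in young and 1299 and 2105 in aged HFSC, and Ly6d of the basal epidermal list, at 7.29 and 14.4 CPM in young and 39.5 and 54.8 in aged HFSC (log2 fold change 2.12, edgeR adjusted p = 0.0118). The melanocyte list was at 14.9 and 16.3 CPM in young and 28.2 and 30.6 in aged HFSC. The part of these in the values was not tested. DESeq2 called 1 gene of the complex, Ivl, which was higher (1.78% of the genes it tested were higher and 0.612% lower).

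In EpdSC the background was 0.0559% higher and 0.0280% lower, and 5 genes of the complex were higher and 1 lower at an unadjusted p under 0.05 (2.75% and 1.71% of all genes). S100a4 was higher in aged EpdSC by 2.75 ± 0.52 on the log2 scale (SE, edgeR adjusted p = 0.156) at the low levels given earlier, and S100a6 by 0.91 ± 0.22 (edgeR adjusted p = 0.348), while Pglyrp4 was lower, at -0.86. DESeq2 called S100a4 and S100a6 higher (0.391% of the genes it tested were higher and 0.163% lower). The difference between the age effects of the 2 populations, EpdSC minus HFSC, was called for 0 genes of the complex by edgeR (0.00466% of all genes were lower and 0% higher), with 2 higher and 4 lower at an unadjusted p under 0.05 (1.86% and 2.70% of all genes). DESeq2 called it higher for S100a4 (0.199% of the genes it tested were higher and 0.412% lower).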

How the data were processed

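ATAC-seq (4 libraries, 1 per group) and RNA-seq (8 libraries, 2 per group) of sorted mouse skin stem cells were used. The deposited ATAC tables hold whole-number counts that the authors made per 500-base window, stepped by 250 bases. The deposited RNA tables hold the authors' raw counts per gene. Bowtie, STAR and mm10 are named in the submitters' processing notes. Treatment of duplicates, the shift for the transposase, strand and annotation are not stated there. Windows starting at a multiple of 500 were kept, so that none overlapped. CPM is a window's count over the sum of such windows on chromosomes 1 to 19 and X. Open means 4 CPM or more, and log2 ratios used CPM + 0.1. With 1 ATAC library per group no test was made, and 95% intervals are exact conditional binomial intervals that cover counting error only. Each window was given to the family of its nearest protein-coding RefSeq gene (GRCm38.p6), with ties going to the shorter gene. Of 108 RefSeq genes, 95 were matched by symbol.

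RNA counts were fitted with edgeR 4.0.16 (R 4.3.3; quasi-likelihood, TMM) on all 8 libraries as 4 groups, after edgeR's filter on low counts. Benjamini-Hochberg adjustment ran over 21464 genes, with calls at an adjusted p under 0.05. DESeq2 1.42.0 was an alternative. Other steps used Python 3.11.15, pandas 2.3.3 and scipy 1.17.1, and were tested on simulated data. Windows were named by the highest mean and the most extreme ratios of each comparison, and genes by their calls, with others named where the text says so. Members and gene lists were chosen with earlier results of these data known. Single-cell libraries were left out. Alternatives were the CPM minimum, grid, scaling, added constant, fold, RNA filter, size factors, replicate block, DESeq2 and leaving out each RNA library.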

Additional observations from a re-analysis of the deposited data

Results flagged for a closer look

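By all counts, in 4 families of windows the summed ATAC signal moved one way with age in HFSC and the other way in EpdSC. Each rests on 1 library per group, and the difference between the populations was not tested. For windows nearest the S100 genes, the log2 ratio of aged to young was -0.64 in HFSC and 0.07 in EpdSC, a difference of -0.71. For windows nearest the Pglyrp genes it was 0.47 and -0.22, a difference of 0.68. For Lce it was 0.21 and -0.09, a difference of 0.29. For windows nearest other genes it was 0.38 and -0.11, a difference of 0.49. Under the scaling to windows open in all 4 libraries the S100 ratios turned to 0.28 in HFSC and -0.08 in EpdSC, a difference of 0.36. The others became 1.39 and -0.36 for Pglyrp, 1.13 and -0.23 for Lce, and 1.30 and -0.26 for other genes. The S100 windows were open in 4.18% of cases, and those of the other 3 families in 0.522%, 0.936% and 0.148%. In the aged HFSC library, open windows took 8.19% of counts, against 27.2% in the young one. The part of this in the values was not tested.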

How the results depend on the processing

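The number of ATAC windows at least 2-fold apart moved with the CPM minimum. Between EpdSC and HFSC at 2 months it was 56, and 98 with a minimum of 2 CPM, 12 with 8 CPM, 743 with none and 23 at 4-fold. At 24 months it was 77, and 124, 25, 2077 and 36 under the same settings, 40 scaled to windows open in all 4 libraries and 34 centred on the genome median, an alternative chosen after seeing the data. For aged against young HFSC it was 49, and 80, 22, 1797 and 5, then 4 with the second scaling and 5 centred. For EpdSC with age it was 0, and 2 with a minimum of 2 CPM and 472 with none. The log2 ratio of the complex's total was 0.42 (2 months), -0.37 (24 months), 0.60 (HFSC age) and -0.19 (EpdSC age) under the second scaling, and 0.043, 1.27, -1.16 and 0.063 over open windows only. The 24-month and HFSC age totals reversed under the second scaling and the EpdSC age total over open windows; the cause was not tested.

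RNA calls between the populations ranged from 10 to 14 at 2 months and from 7 to 11 at 24 months when 1 library was left out. With age, the test without a filter called 3 genes in HFSC, 3 in EpdSC and 3 for the difference, and DESeq2 called 1, 2 and 1. Leaving out 1 library gave 0 in HFSC, and from 0 to 1 in EpdSC and for the difference, the 1 coming without aged EpdSC replicate 1 in each. Replicate numbers did not pair the libraries (r from -0.213 to 0.174). With the replicate block the calls were 13 at 2 months, 9 at 24 months, 0 for HFSC age, 1 for EpdSC age and 0 for the difference, and Flg2 at 2 months was -0.044. Over the fits without 1 library, Flg2 ranged from -2.03 to 1.00 at 2 months and from -0.51 to 0.22 at 24 months, and Lce1m from -0.91 to 1.49 and from -1.50 to 1.27. Sprr1a at 2 months was called without a filter (edgeR adjusted p = 0.000968), by DESeq2 (adjusted p = 0.0328) and without young HFSC replicate 1 or young EpdSC replicate 2. S100a13 at 24 months lost its call without aged HFSC replicate 1 (edgeR adjusted p = 0.0545). A minimum of 4 CPM is 33.0 counts in the shallowest ATAC library, which limits what low windows can show.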
